A study of Mus musculus with 3 samples.

Results

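The Wnt pathway was described in 3 untreated mammary tumours of the mouse strain FVB-MMTV-Neu, through the 65 genes that encode its ligands, receptors and modulators, taken by symbol from tables of 47480 gene symbols. The members were 19 Wnt ligand genes, 2 genes of ligand secretion, 4 R-spondins, 3 Lgr receptors, 2 membrane ubiquitin ligases, 12 frizzled and Lrp receptors, 10 secreted inhibitors, 9 cytoplasmic transducers and 4 Tcf/Lef factors. The rule that picks them reads the symbol and no measured value. In this strain a Neu (Erbb2) transgene is driven by the promoter of the mouse mammary tumour virus, which is active mainly in mammary epithelium. The labels do not give the form of Neu, the age of the mice or whether the tumours came from separate donors. Per the labels' protocols the tumours were injected orthotopically into syngeneic hosts, reached 5 mm in diameter and grew for a further 7 days without treatment, whereas the series' design text has them come from the transgenic mice themselves. All 3 belong to 1 group and no other condition was measured. They are called tumours 1, 2 and 3 in the order of deposition.

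Wnt proteins are secreted lipid-modified ligands that bind a frizzled receptor together with Lrp5 or Lrp6. This stops the Axin and Apc complex from degrading beta-catenin, which then enters the nucleus and switches on genes with Tcf/Lef factors. R-spondins strengthen the signal through Lgr receptors by removing the ubiquitin ligases Znrf3 and Rnf43, which clear frizzleds from the membrane, while Sfrp, Dkk, Wif1 and Notum proteins weaken it outside the cell. In the mammary gland the pathway is known for branching and for the upkeep of basal stem cells. The virus whose promoter is used here is itself known to cause mammary tumours by integrating next to Wnt1, Wnt3, Wnt10b or Rspo2.

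The libraries held 47449113, 11388756 and 17147378 estimated counts in tumours 1, 2 and 3, so tumour 2 gives the least precise values. The headers of the files place tumour 1 in sequencing lane 1 and the others in lane 5, which means that lane and the difference of tumour 1 from the others cannot be told apart. Levels are CPM, the counts scaled by an effective library total. This is the total over genes past a filter on low counts, times a scaling factor (TMM) of 1.48, 0.722 and 0.936 in turn. The CPM of all genes therefore do not sum to the same value, but to 685911, 1415450 and 1089800 in tumours 1, 2 and 3. On this scale 1 count is worth 0.0145, 0.124 and 0.0636 CPM. Markers of luminal epithelium summed to 2325, 1667 and 2546 CPM, so the labelled epithelium was present in all 3. Of these 9 markers, 6 were highest in tumour 1, among them Epcam at 399, 120 and 244 CPM, and 3 in tumour 3, among them Krt8 at 407, 734 and 1038 CPM. Tumour 1 also stood apart in the basal and myoepithelial markers and in the skeletal muscle markers. The 9 basal and myoepithelial markers summed to 670, 415 and 277 CPM, 6 of 9 being 4-fold or more above both others in tumour 1, among them Krt5 at 64.4, 1.62 and 1.46 CPM. Among genes with a count, all 12 skeletal muscle markers were at least 4-fold below both others in tumour 1, where they summed to 8.40 CPM against 51182 and 22933 CPM. Endothelial markers summed to 226, 1944 and 734 CPM, fibroblast markers to 4271, 6856 and 3810 CPM, adipocyte markers to 305, 299 and 209 CPM, leukocyte markers to 156, 306 and 286 CPM, and skin and hair follicle markers to 13.1, 17.1 and 9.34 CPM. In such bulk samples, fewer cells of a type and less RNA per cell cannot be told apart. The part of these cell types in the values that follow was not tested. Leaving the muscle genes out of the totals kept all 10 calls past the filter given next. However, only 4 of the 12 muscle markers passed the filter and entered the totals. Their removal hardly changed the scaling and could not test the part of muscle in it.

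Of the 65 members, 60 had a count in some tumour and 41 passed the filter on low counts, which asks for reads in all 3 tumours. Of all 47480 symbols, 23882 had a count and 12710 passed. Members with a count numbered 59, 48 and 57 in tumours 1, 2 and 3, beside 22914, 16665 and 18248 of all symbols. The order of the tumours is that of the library totals. A member can enter these numbers on a single count, as Wnt8a did in tumour 1. The members together took 0.375% of all counts in tumour 1, against 0.119% and 0.147% in tumours 2 and 3. These shares are of unscaled counts. With totals as the only scaling, the median over all genes was itself 0.96 higher in tumour 1 than in the mean of the others, on the log2 scale. On the scaled level used elsewhere, the members summed to 2571, 1687 and 1598 CPM. Tumour 1 was the highest of the 3 for 24 of the 41 members, or 58.5%, against 47.1% of all 12710 genes past the filter. The plot of levels by role shows tumours 2 and 3 side by side for most members and tumour 1 to either side of them.

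**Figure D1:**
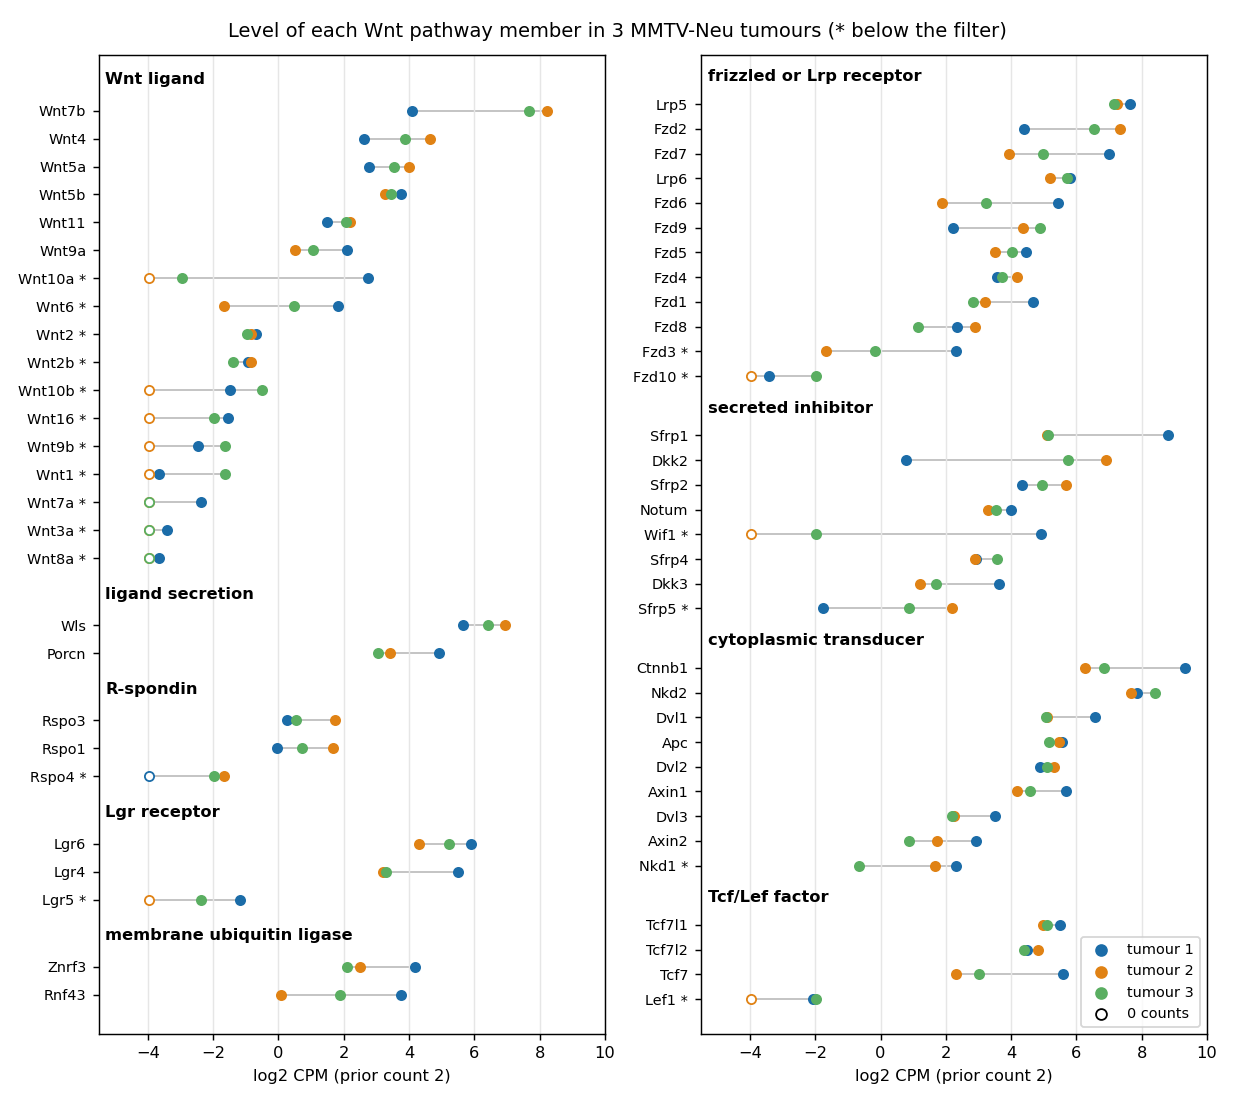
Level of the 60 members with a count, as log2 CPM with a prior count of 2 on the horizontal axis, grouped by role and ordered by mean level. Each point is 1 tumour, open points mark 0 counts and grey lines join the lowest and highest tumour. Wif1, Wnt10a and Dkk2 span the widest ranges, with tumour 1 highest in the former pair and lowest in Dkk2, and Apc, Dvl2 and Lrp5 have narrow ones.

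In tumour 1, 6 of 41 members (14.6%) lay 4-fold or more above both others, compared with 6.05% of all genes past the filter. These were Sfrp1, Ctnnb1, Tcf7, Fzd6, Fzd7 and Lgr4. A further 4 (9.76%), Dkk2, Wnt7b, Fzd2 and Fzd9, were at least 4-fold below both others, against 8.21% of all genes. For 4 of these calls, counting error alone reaches across the 4-fold limit. The 95% counting intervals against tumour 3 were 3.74 to 4.50 in Fzd7, 3.93 to 5.52 in Fzd6 and 3.88 to 5.40 in Lgr4. For Fzd9 the ratio of tumour 1 to tumour 2 had an interval of 0.187 to 0.275. The share below is close to that of all genes, and the share above moves with the treatment of the data. Where the trend of the tumour differences on GC content and transcript length was removed, 3 members were above (Sfrp1, Ctnnb1 and Tcf7) and 2 below (Dkk2 and Wnt7b), against 5.61% and 6.38% of all genes. With library totals as the only scaling, 13 were above, where 16.4% of all genes were, and 2 below, where 3.60% were. Among all 60 members with a count, 9 were above and 5 below, beside 9.24% and 7.39% of the 23882 genes with a count. The added members were Wnt10a, Wif1 and Fzd3 above and Sfrp5 below.

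No member past the filter lay 4-fold above or below both others in tumour 2 or in tumour 3, rules that 0.252% and 0.590% of all genes met in tumour 2 and 0.0787% each in tumour 3. Between tumours 2 and 3 alone, 35 of 41 members (85.4%) were within 2-fold, as were 83.8% of all genes, and none were 4-fold apart, beside 0.448% of all genes above and 0.755% below in tumour 2. For 15 members (36.6%) the range over the tumours reached 4-fold, compared with 29.5% of all genes. Among the 60 members with a count, none were 4-fold above both others in tumour 2 (2.63% of all genes with a count), and Wnt6 and Wnt10b were below (3.52%). In tumour 3, Wnt1 was above (1.43%) on 4 counts and Nkd1 below (1.11%) on 9. The range reached 4-fold for 27 of the 60 (45.0%, beside 37.3%). Tumour 2 was 4-fold above tumour 3 in 1 of the 60 (4.80% of all genes) and below it in 4 (6.05%), all 5 with 25 counts or fewer in both of these tumours. The median difference of tumour 1 from the mean of the others was 0.44 on the log2 scale for the members and 0.11 for all genes.

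**Figure D2:**
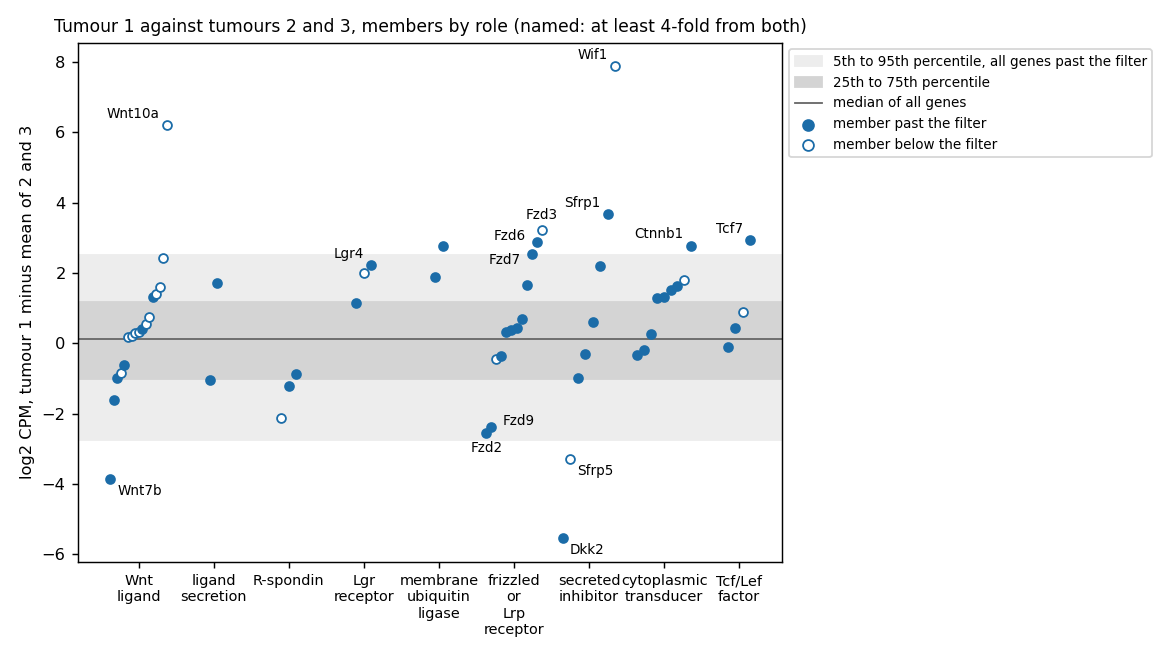
Difference in log2 CPM between tumour 1 and the mean of tumours 2 and 3 on the vertical axis, for each member with a count, by role on the horizontal axis. The bands give percentiles of all genes past the filter and open points are members below it. Named members lie at least 4-fold from both other tumours, and the ligands, the frizzled receptors and the secreted inhibitors have such members on both sides of 0.

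Among the ligands, the tumours differed in which gene led. Wnt7b, a ligand known from the ductal epithelium of the gland, was at 17.0, 299 and 204 CPM in tumours 1, 2 and 3 (chromosome 15, 85535437 to 85582473, GRCm38, the build of all gene positions given). Tumours 2 and 3 were thus high and tumour 1 low, by 17.6-fold and 12.0-fold. Divided by transcript length, Wnt7b made up 86.0% and 82.3% of the summed ligand level in tumours 2 and 3, but 24.8% in tumour 1, where Wnt5b led with 28.2%. These shares are taken within a library and do not depend on how libraries were scaled. With the median instead of the longest transcript as the length, they were 18.7, 78.2 and 74.4% for Wnt7b.

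Wnt10a, a ligand best known from skin and tooth development, had 456 counts in tumour 1 (6.59 CPM), none in tumour 2 and 1 in tumour 3. That is 17.7-fold the level that 3 counts would be in tumour 2, where the lower 95% counting limit of the ratio was 14.3. It is 104-fold the level in tumour 3 (95% counting interval 18.5 to 4106). Its neighbour Wnt6 on chromosome 1 (74771892 to 74785322, with Wnt10a at 74791516 to 74804179) had 239, 2 and 21 counts, or 3.45, 0.249 and 1.33 CPM. Both neighbours were highest in tumour 1. The 2 genes made up 13.2% and 8.27% of the ligand level per length in tumour 1, and at most 0.883% each in the other tumours.

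Wnt4, the ligand that acts downstream of progesterone in the gland, was at 6.11, 24.9 and 14.6 CPM, and Wnt5a, a ligand of the branch without beta-catenin, at 6.72, 15.9 and 11.4 CPM. For both the order of the tumours was that of Wnt7b. Wnt5b and Wnt11 were even, at 13.5, 9.45 and 10.8 CPM and at 2.76, 4.47 and 4.13 CPM. Wnt9a was at 4.22, 1.37 and 2.03 CPM. The ligand genes known as integration sites of the virus were near the limit of detection. Wnt1 had 1, 0 and 4 counts and Wnt10b, its neighbour on chromosome 15, had 20, 0 and 10. Wnt3 had none in any tumour, where 3 counts would be 0.0434, 0.373 and 0.191 CPM. Of the other ligands, Wnt8b had no count, and Wnt2, Wnt2b, Wnt3a, Wnt7a, Wnt8a, Wnt9b and Wnt16 stayed at or below 0.549 CPM.

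Ligand secretion needs Porcn, which attaches the lipid, and Wls, which carries the ligand to the surface. Wls was at 49.8, 123 and 84.7 CPM and Porcn at 30.4, 10.6 and 8.14 CPM, so the carrier was lowest in tumour 1 and the acyltransferase highest there.

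**Figure D3:**
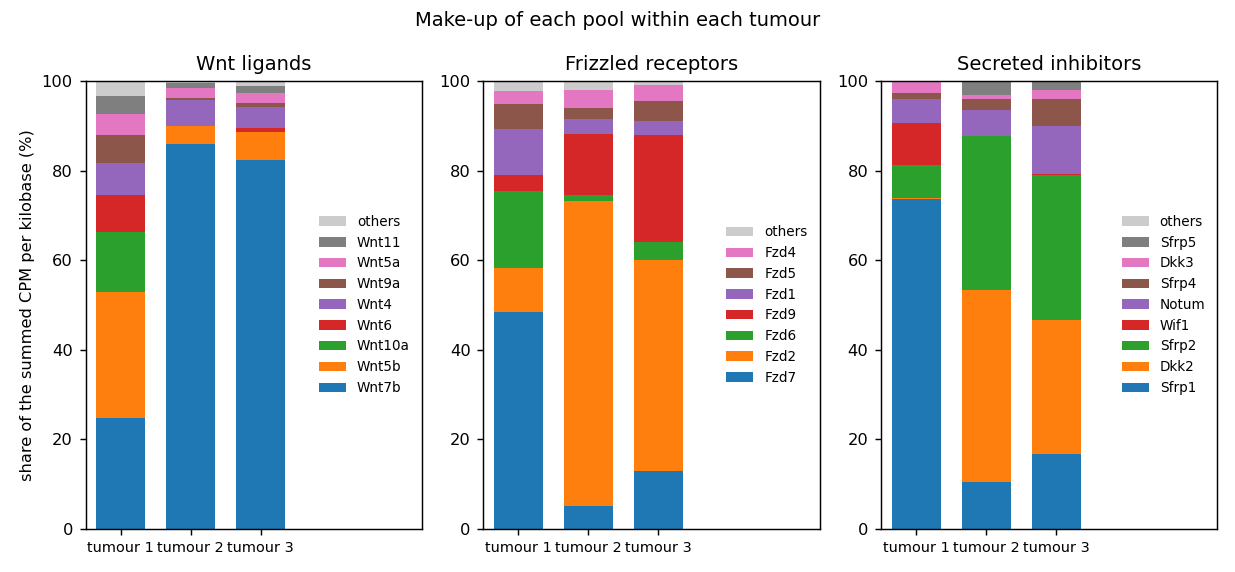
Share of each gene in the summed CPM per kilobase of the Wnt ligands, the frizzled receptors and the secreted inhibitors, in % on the vertical axis, with 1 bar per tumour. In tumours 2 and 3 the largest parts belong to Wnt7b, to Fzd2 and to Dkk2 or Sfrp2, and in tumour 1 Wnt5b, Fzd7 and Sfrp1 lead.

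The receptors showed the same kind of exchange while the coreceptors hardly differed. Fzd7 (chromosome 1, 59482424 to 59486955), a receptor of mammary basal and stem cells, was at 128, 15.2 and 31.1 CPM, highest in tumour 1 by 8.42-fold and 4.10-fold. Fzd2 (chromosome 11, 102604396 to 102608058) ran the other way at 21.0, 162 and 92.4 CPM, and Fzd9 at 4.61, 20.4 and 29.2 CPM. Within the frizzled genes, Fzd7 held 48.5% of the level per length in tumour 1, whereas Fzd2 held 68.0% and 47.2% in tumours 2 and 3. The rank of Fzd7 depends on the length used, because with the median transcript Fzd6 came first in tumour 1 with 53.6% and Fzd7 had 26.3%. Fzd6, a receptor of planar cell polarity, was at 43.1, 3.60 and 9.28 CPM, and Fzd3, which shares that role, at 4.86, 0.249 and 0.826 CPM. The 4-fold calls of Fzd2, Fzd6, Fzd7 and Fzd9 were lost once the trend on GC content and length was taken out, but not to the same extent. The log2 difference of tumour 1 from the mean of the others went from 2.55 to 2.58 in Fzd7, from 2.88 to 2.46 in Fzd6, from −2.54 to −2.18 in Fzd2 and from −2.39 to −1.19 in Fzd9. In Fzd7, Fzd6 and Fzd2 it thus stayed past 4-fold against that mean and missed 4-fold against the nearer tumour. Those of Fzd2 and Fzd9 were also lost with totals as the scaling, and that of Fzd7, whose difference was then 2.45 and 2.48, with DESeq2 size factors and with thinned counts.

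Fzd1 was at 25.5, 9.20 and 7.12 CPM and Fzd8 at 5.03, 7.33 and 2.16 CPM. Fzd4 (11.8, 18.1 and 13.0 CPM) and Fzd5 (22.0, 11.2 and 16.4 CPM) stayed within 2-fold over the tumours. Fzd10 had 2, 0 and 3 counts. The coreceptor genes were level, Lrp5 at 199, 151 and 142 CPM (164 ± 30.7, SD, n = 3) and Lrp6 at 56.3, 36.2 and 52.7 CPM (48.4 ± 10.7, SD, n = 3).

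Promoter windows of 250 bases before the RefSeq start (GRCm38.p6) were at hand for 43 members, in 53 windows. The letters CTTTGAT, a core that Tcf/Lef factors are known to bind, stood on either strand in 2 windows (3.77%) and in 3.21% of all 32851 windows. The form CTTTGTT stood in 3 windows (5.66%), those of Fzd7, Tcf7l2 and Dkk1, and in 5.03% of all. The shorter CTTTGA, which is part of the first form, stood in 5 windows (9.43%, against 13.8% of all), and CTTTGATC, which holds the first form, in the same 2 as CTTTGAT (0.801% of all). The windows of Fzd7, Wnt11 and Wnt5b, all outside annotated exons, are shown because they set a member at least 4-fold apart beside 2 even ones. Capitals mark the match, or its reverse complement where it lies on the opposite strand. Fzd7 is at chr1:59481897-59482146 on the plus strand, Wnt11 at chr7:98834862-98835111 on the plus strand and Wnt5b at chr6:119449387-119449636 on the minus strand.
Fzd7: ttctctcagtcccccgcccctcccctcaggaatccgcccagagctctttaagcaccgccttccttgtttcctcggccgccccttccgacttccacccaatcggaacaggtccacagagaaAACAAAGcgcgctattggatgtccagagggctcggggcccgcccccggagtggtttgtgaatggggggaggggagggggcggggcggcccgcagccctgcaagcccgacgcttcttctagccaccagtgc
Wnt11: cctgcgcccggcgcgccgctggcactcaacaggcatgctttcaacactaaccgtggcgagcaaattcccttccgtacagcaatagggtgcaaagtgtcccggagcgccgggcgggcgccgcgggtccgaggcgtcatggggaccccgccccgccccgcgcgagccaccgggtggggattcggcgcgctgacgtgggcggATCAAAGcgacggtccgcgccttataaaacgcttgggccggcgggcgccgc
Wnt5b: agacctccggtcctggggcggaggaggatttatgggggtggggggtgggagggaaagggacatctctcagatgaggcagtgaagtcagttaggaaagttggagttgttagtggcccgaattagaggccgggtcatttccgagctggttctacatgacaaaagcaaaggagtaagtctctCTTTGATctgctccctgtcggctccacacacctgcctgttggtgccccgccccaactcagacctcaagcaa
The match ends 124, 45 and 65 bases from the start in these windows, counted back from 1 at the last base before it. CTTTGTT stands in Fzd7, which is apart in tumour 1, and in Tcf7l2, which is even. CTTTGAT stands in the even Wnt11 and Wnt5b, whose other windows hold neither form. A match of letters is a description, not a binding site.

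The amplifying arm was mixed. Lgr4, the widely expressed R-spondin receptor, was at 44.7, 9.20 and 9.79 CPM, 4.86-fold and 4.56-fold higher in tumour 1, a call that ended once the trend on GC content and length was taken out. Lgr6 was at 59.6, 19.6 and 37.5 CPM. The stem cell marker Lgr5 had only 26, 0 and 2 counts. R-spondin transcripts were scarce, Rspo1 at 0.911, 3.11 and 1.59 CPM and Rspo3 at 1.14, 3.23 and 1.40 CPM. Rspo4 had 0, 2 and 3 counts and Rspo2 none in any tumour. Lgr4 and Lgr6 were thus highest in tumour 1, where Rspo1 and Rspo3, the R-spondins past the filter, were lowest. Rspo3 in tumours 1 and 3 did not differ beyond counting error (ratio 0.817, 95% interval 0.504 to 1.38). Its log2 difference of tumour 1 from the mean of the others was −0.86, and −0.04 with totals alone. That of Rspo1 was −1.23, and −0.25 once the trend on GC content and length was taken out. The ubiquitin ligase genes Znrf3 and Rnf43, which beta-catenin itself is known to induce, were at 18.2, 5.59 and 4.19 CPM and at 13.3, 0.994 and 3.62 CPM, highest in tumour 1 in both cases.

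The secreted inhibitors held the members past the filter with the highest and the lowest difference of tumour 1 from the others, Sfrp1 at 3.68 and Dkk2 at −5.54 on the log2 scale. Sfrp1 (chromosome 8, 23411502 to 23449632), which binds Wnt ligands outside the cell, was at 444, 34.4 and 34.8 CPM (171 ± 237, SD, n = 3). Tumour 1 was 12.9-fold and 12.8-fold higher, and tumours 2 and 3 did not differ beyond their counting intervals (30.5 to 38.7 and 32.0 to 37.9 CPM). Wif1 (chromosome 10, 121033960 to 121100650), another ligand-binding inhibitor, had 2079 counts in tumour 1 (30.1 CPM), none in tumour 2 and 3 in tumour 3. That is 80.6-fold the level that 3 counts would be in tumour 2, where the lower 95% counting limit of the ratio was 65.5. It is 158-fold the level in tumour 3 (95% counting interval 53.9 to 765). With these counts in tumours 2 and 3, Wif1 did not pass the filter.

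Dkk2 (chromosome 3, 132085292 to 132180304), which acts on Lrp5 and Lrp6, had the opposite pattern at 1.65, 119 and 53.4 CPM, 71.9-fold and 32.4-fold higher in tumours 2 and 3. Sfrp5 followed it at 0.231, 4.47 and 1.78 CPM, below the filter. Sfrp2, a product of stromal fibroblasts in many tissues, was at 20.1, 51.5 and 31.0 CPM. Tumour 2 was also the highest for 6 of the 10 fibroblast markers, among them Col1a1 at 1576, 3695 and 1625 CPM, but not for Col3a1 at 965, 566 and 402 CPM, and the part of these cells in the Sfrp2 level was not tested. Dkk3 was at 12.4, 2.24 and 3.18 CPM. Sfrp4 (7.49, 7.33 and 11.8 CPM) and Notum, an enzyme that removes the lipid of Wnt (15.9, 9.69 and 11.5 CPM), stayed within 2-fold. Dkk1 and Dkk4 had no counts. Of the summed inhibitor level per length, Sfrp1 took 73.6% in tumour 1 and Dkk2 with Sfrp2 took 42.8% and 34.4% in tumour 2 and 30.1% and 32.3% in tumour 3. With the median transcript as the length, Sfrp2 led in tumours 2 and 3 with 61.6% and 56.9%.

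Ctnnb1, the beta-catenin gene (chromosome 9, 120929216 to 120960507), was at 643, 77.2 and 114 CPM. Tumour 1 was high and the others low, by 8.34-fold and 5.62-fold. Ctnnb1 shares exon sequence with the opposite-strand gene Ulk4, which was at 7.42, 10.2 and 13.5 CPM. The genes of the complex that degrades beta-catenin did not follow it to the same extent. Apc was at 47.1, 43.9 and 35.7 CPM (42.2 ± 5.85, SD, n = 3), Axin1 at 51.1, 18.0 and 23.6 CPM, and Axin2, a feedback inhibitor that beta-catenin induces, at 7.47, 3.23 and 1.78 CPM. Nkd1, another induced inhibitor, was at 4.91, 3.11 and 0.572 CPM, at least 4-fold below both others in tumour 3 on 9 counts and below the filter. Its relative Nkd2 was among the highest members everywhere, at 231, 203 and 340 CPM.

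The dishevelled genes, which pass the signal from frizzled receptors, differed among themselves. Dvl1 was at 95.5, 33.9 and 33.6 CPM and Dvl3 at 11.2, 4.72 and 4.51 CPM, both highest in tumour 1. Dvl2 was even at 29.2, 39.5 and 34.1 CPM, but shares exon sequence with the opposite-strand gene Acadvl at 71.8, 86.9 and 106 CPM. Without a strand setting the reads of such pairs cannot be told apart, and 14 members have an exon that overlaps a gene on the other strand.

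Of the nuclear partners, Tcf7 was the one that differed. Tcf7 (chromosome 11, 52252371 to 52283014), best known from T cells, was at 48.0, 4.85 and 8.01 CPM, 9.90-fold and 5.99-fold higher in tumour 1. Tcf7l1, a repressor in the absence of a signal, was at 44.7, 31.7 and 34.0 CPM and Tcf7l2 at 22.5, 28.0 and 20.8 CPM, both within 2-fold. Lef1 had 12, 0 and 3 counts. Tcf7 therefore made up 48.3% of the summed Tcf/Lef level per length in tumour 1 and 9.85% and 16.1% in the others, where Tcf7l1 led with 52.3% and 55.7%. With the median transcript, Tcf7l1 led in all 3 tumours and Tcf7 held 23.9, 3.91 and 6.28%. The T cell marker Cd3e was at 0.462, 0.870 and 1.65 CPM, lowest in tumour 1, and the part of T cells in the Tcf7 level was not tested.

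Altogether 13 of 41 members (31.7%) stayed within 2-fold over the 3 tumours, compared with 34.4% of all genes. These were Wnt5b, Wnt11, Fzd4, Fzd5, Lrp5, Lrp6, Sfrp4, Notum, Dvl2, Apc, Nkd2, Tcf7l1 and Tcf7l2. They depend on the scaling between libraries, since with totals alone the median difference of tumour 1 over all genes was 0.96 on the log2 scale in place of 0.11. The difference of tumour 1 then changed sign in 6 of 41 members, namely Fzd4, Wnt11, Dvl2, Sfrp4, Nkd2 and Tcf7l2. None of the 10 members past the filter and 4-fold apart in tumour 1 changed sign with totals or with DESeq2 size factors. They were picked for large differences, the smallest in size being that of Lgr4 at 2.23. These scalings shift the differences by less than that, so no sign could change.

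**Figure D4:**
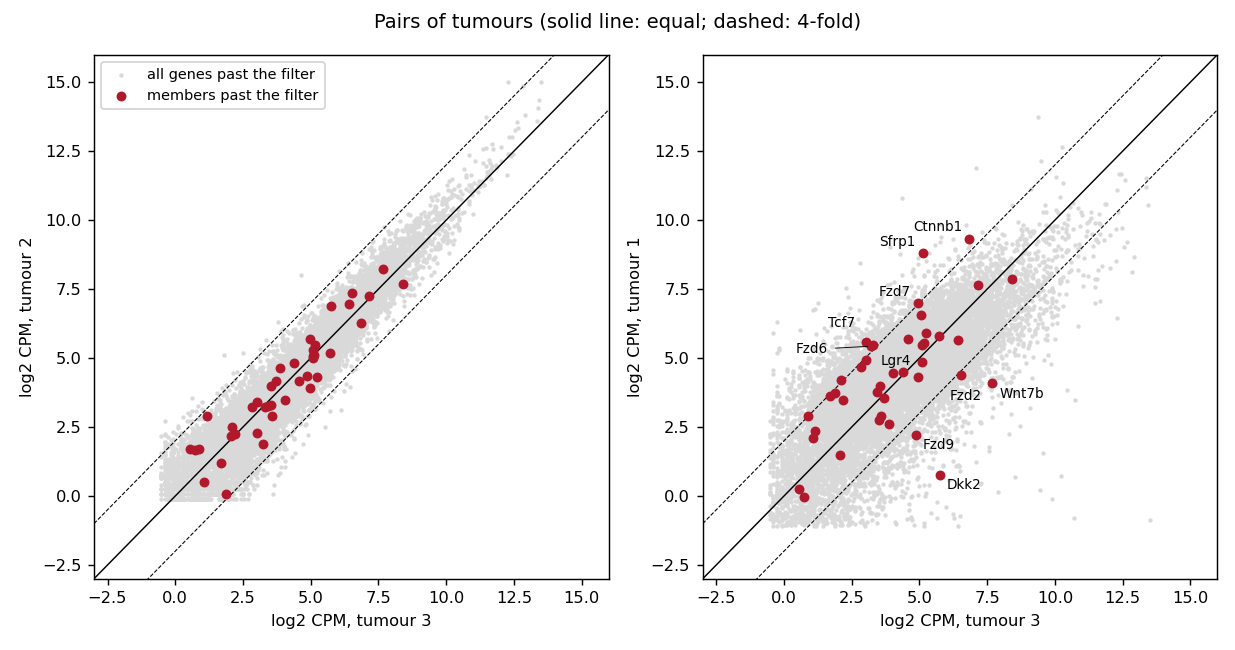
Level as log2 CPM of tumour 2 (left) and tumour 1 (right) on the vertical axes against tumour 3 on the horizontal axes, for all genes past the filter in grey and the 41 members in red. The solid line marks equal levels and the dashed lines 4-fold differences. Members stay between the dashed lines on the left, and on the right the named members, at least 4-fold from both others in tumour 1, lie beyond them, with Fzd7, Fzd2, Fzd6 and Lgr4 close to the lines.

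A list of 58 other genes of the pathway, of which 56 were in the tables, also differed mainly in tumour 1. Of the 47 past the filter, 11 lay 4-fold or more above both others in tumour 1 (Kremen1, Gpc4, Sdc1, Tspan12, Tnks, Ctbp2, Vangl1, Celsr1, Celsr2, Dact2 and Shisa2) and none below, beside 6.05% and 8.21% of all genes. The widest range was that of Apcdd1, an inhibitor at the membrane that is also a target, at 4.71, 0.124 and 0 CPM (326, 1 and 0 counts). The highest genes of the list were even. Ctbp1, a corepressor, was at 252, 324 and 301 CPM, Tnks2, which marks Axin for degradation, at 237, 235 and 292 CPM, and the casein kinase gene Csnk1d at 189, 238 and 207 CPM. The median difference of tumour 1 for the list was −0.12, below that of all genes, although 11 of its genes lay 4-fold or more above.

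Genes that beta-catenin and Tcf induce in many tissues did not all follow the order of Ctnnb1. Of 24 listed, 23 were in the tables and 16 passed the filter. In tumour 1, 3 of these 16 (Tnfrsf19, Myc and Ephb3) lay 4-fold or more above both others and none lay below, where 6.05% and 8.21% of all genes did. Among the 22 with a count, 4 lay above and 2 below, beside 9.24% and 7.39% of all genes with a count. Sp5, on 10, 7 and 13 counts, was among those below. Ccnd1, the cyclin D1 gene, was at 674, 1097 and 1227 CPM and the adhesion receptor gene Cd44 at 99.5, 209 and 205 CPM, both lowest in tumour 1, whereas Myc was at 187, 31.4 and 45.9 CPM. Among the members that are themselves targets, Axin2, Rnf43 and Znrf3 were highest in tumour 1, and Lgr5 and Lef1 were near the limit of detection in all 3. The median difference of tumour 1 over the 16 was 0.16, beside 0.11 for all genes.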

How the data were processed

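RNA-seq was measured in 3 tumours, 1 library each, prepared with a TruSeq mRNA kit and read as 50 bp pairs. The deposited values are estimated counts summed by gene symbol, made by the authors with Salmon, per the file headers. They carry no scaling for depth or length. STAR, SAMtools, Picard and build mm10 are named in the submitters' processing notes. For versions, annotation, strand setting and the summing to genes, the answer is not given in the sources used here. The expected counts were rounded. Genes were kept by filterByExpr of edgeR 4.0.16 (R 4.3.3; minimum count 10, minimum total 15), leaving 12710 genes, and totals were scaled by TMM factors of 1.48, 0.722 and 0.936. Log2 CPM used a prior count of 2. Intervals are exact 95% Poisson or, for ratios, binomial intervals, which with floors of 3 counts cover counting error only.

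With 1 group there is no test between conditions and no p-value is given. A gene was called apart in a tumour at 4-fold from both others, a single library with no replicate check. The computation of the call was tested on simulated data, which gives no error rate for these tumours. Lengths, GC content and positions came from GENCODE M21 (GRCm38, also named mm10), which held 45213 of the symbols, 97.1% of the genes past the filter and all 65 members. Promoters came from RefSeq. Alternatives were DESeq2 1.42.0 size factors, totals alone, totals without muscle genes and Rn18s-rs5, other filters, prior counts and thresholds, thinning, a GC and length trend and leaving out each tumour. Values in each tumour are given for every member at least 4-fold apart, for the 3 highest per length and the widest in each role, for Axin2, Lgr5, Lef1, Wnt1, Wnt3, Wnt10b and Rspo2, and for the 3 highest and the widest genes of the pathway and target lists. The marker lists (luminal, basal, skeletal muscle, endothelial, fibroblast, adipocyte, leukocyte, skin) are given by sums. Values of the remaining members, of Cd3e, Ulk4 and Acadvl and of the markers named beside their sums were chosen to be printed after they were seen. The members and lists were chosen with earlier results of these data known.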

Additional observations from a re-analysis of the deposited data

How the results depend on the processing

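No paired analysis was possible because all 3 samples form 1 group and the numbers pair nothing. Of the 10 members called apart in tumour 1, Sfrp1, Ctnnb1, Tcf7, Dkk2 and Wnt7b kept the call under every scaling, prior count and thinning. They also kept it with the GC and length trend removed. Of these 5, 8-fold left 1 above (Sfrp1) and 2 below (Dkk2 and Wnt7b), where 1.31% and 2.70% of all genes were. All 10 calls were kept without tumour 2 or tumour 3, but leaving out a tumour only removes a condition of the call and cannot lose it. In tumour 1, members above numbered 13 and members below 2 with totals alone, 3 and 2 once the trend on GC and length was removed, and 16 above at 2-fold, where 22.1% of all genes were. Left-out tumours gave 8 above in either case and 4 to 5 below, while the shares of all genes were 7.48% and 9.04% without tumour 2 and 13.6% and 13.5% without tumour 3. In tumour 2, members below numbered 1 with totals alone and without the trend, 2 with no filter (3.52% of all genes with a count) or a minimum mean CPM of 1, and 3 at 2-fold, where 2 were above. In tumour 3, 1 member was above with no filter (1.43% of all genes with a count), and 1 below with no filter (1.11%), with that minimum and at 2-fold. Against a single tumour, tumour 2 had 0 to 5 above and 0 to 8 below, and tumour 3 had 0 to 4 above and 0 to 8 below, the zeros being without tumour 1. The counts against tumour 1 mirror those of tumour 1 with a tumour left out and have the same shares of all genes. Without tumour 1, 0.448% of all genes were above and 0.755% below in tumour 2. Members whose range reached 4-fold numbered 27 with no filter (37.3% of all genes with a count) and 0 to 13 with a tumour left out, 0 being without tumour 1. At the other thresholds, 28 reached 2-fold and 8 reached 8-fold. The 13 that did not reach 2-fold were 31.7% of the members, beside 34.4% of all genes. Counts in this paragraph that stand without a share of all genes are not read as results about the members. The median difference of tumour 1 was 1.30 with totals alone and 0.42 to 0.51 with a tumour left out. Relative to all genes it was 0.34 with TMM, DESeq2 and total scaling. These scalings shift all genes nearly alike, so they cannot test that relative value. With the trend on GC and length removed it was 0.47. Of the single differences of 60 members, 23 moved by more than 1 SD with totals alone and 15 without the trend, and 22 levels per length did with the median transcript. The cause of these shifts was not tested. Depth limits the members without reads in tumour 2, where 3 counts are 0.373 CPM.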
